A study of Homo sapiens with 15 samples.

Results

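The genes described here encode enzymes of glycolysis: HK2, GPI, PFKP, ALDOA, ALDOC, TPI1, GAPDH, PGK1, ENO1 and LDHA. They were taken by symbol from the table of read counts, which lists 58676 genes, and all 10 were found and passed the filter on low counts that left 14461 genes for testing. RNA sequencing was done on PATU-8988T cells, a long-established line of human pancreatic cancer, which received THZ1 at 100 nM for 4 h, THZ1 at 100 nM for 24 h, YKL-5-124 at 100 nM for 4 h, YKL-5-124 at 100 nM for 24 h, or 0.1% DMSO as the vehicle, with 3 libraries in each of the 5 groups. Both compounds are described in the series as inhibitors of CDK7, a TFIIH kinase that acts on RNA polymerase II and on cell-cycle kinases. All groups are 1 cell line, the DMSO group has no time in its labels and serves at both times, and the labels number the replicates without a statement on separate cultures, so the tests measure the spread between these libraries. In bulk libraries such as these, fewer cells of a type and less RNA per cell cannot be told apart.

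Glycolysis splits glucose into pyruvate in the cytosol, with a small yield of ATP and of reduced NAD, and lactate dehydrogenase turns pyruvate into lactate to restore NAD. Hexokinase and phosphofructokinase catalyse its practically irreversible early steps, and most enzymes between them and pyruvate work close to equilibrium. Pancreatic cancer cells are known for high glycolytic flux, and HIF1, MYC and the carbohydrate-responsive MLX factors are known to bind glycolytic gene promoters at hypoxia response elements and E-boxes.

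The libraries held 15567057 to 22869590 counts. Of 6 epithelial markers KRT8, KRT18 and EPCAM were present in every group at 1 CPM or more (counts scaled to library size with the trimmed mean of M values, TMM). KRT7 and CDH1 reached 1 CPM only after 24 h of THZ1 (3.13 to 4.39 and 3.47 to 6.76 CPM, against 0.580 to 0.843 and 0.193 to 0.295 CPM in DMSO), and KRT19 was at 0 in DMSO. All 3 mesenchymal genes were present (188 to 397 CPM summed). Of 3 fibroblast markers COL1A1 passed 1 CPM, at 1.21 to 7.25 CPM after 24 h of THZ1, against 0.133 to 0.548 CPM in DMSO, and of 2 duct markers SOX9 did, at 0.845 to 1.36 CPM after 24 h of THZ1, against 2.95 to 7.82 CPM in DMSO. The part of these markers in the results was not tested. Of the other lists 0 of 4 acinar, 0 of 3 islet, 0 of 3 immune and 0 of 2 endothelial genes reached 1 CPM, and INS, GCG and SST were at 0 in all libraries. Transcripts of ribosomal protein genes took 20.8% to 23.1% of the counts after 24 h of THZ1 and 6.52% to 8.71% after 24 h of YKL-5-124, against 9.04% to 11.6% in DMSO. The TMM factors were 0.532 to 0.559 after 24 h of THZ1, against 1.15 to 1.27 in DMSO. In each group 1 library stood apart from the other two by the chi-square of its counts per degree of freedom; in DMSO this was replicate 2 (54.0 and 48.0 against the others, which differed by 4.42), and TPI1, GAPDH, PGK1, ENO1 and LDHA all had their lowest DMSO level in it.

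In DMSO the genes spanned a wide range of levels per transcript length. ENO1, the enolase that forms phosphoenolpyruvate, was highest at 796 ± 126 RPKM (CPM per kilobase of gene length; SD, n = 3). GAPDH, which oxidises the triose phosphate and reduces NAD, followed at 512 ± 81.6 RPKM. LDHA, the lactate dehydrogenase subunit favoured in tumours, had 302 ± 29.6 RPKM, and TPI1, the triose phosphate isomerase, had 249 ± 46.4 RPKM, and the ranges of these 2 genes overlapped. PFKP, the platelet-type phosphofructokinase, had 79.8 ± 1.93 RPKM and PGK1, the phosphoglycerate kinase, had 71.7 ± 12.3 RPKM, again with overlapping ranges. GPI, the glucose phosphate isomerase, had 38.6 ± 2.56 RPKM and HK2, the inducible hexokinase bound to mitochondria, had 13.6 ± 0.239 RPKM. The aldolases, which cleave the hexose bisphosphate, were lowest, with ALDOC at 1.10 ± 0.147 RPKM and ALDOA at 0.112 ± 0.0219 RPKM.

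The level of ALDOA is uncertain. Its row held 12 to 40 counts per library and 332 in all, and in the annotation a protein-coding gene on the same strand, AC093512.2, shares 42.3% of the exonic bases of ALDOA (GENCODE 29) and held 278 counts. The sources used here do not say how reads that match both genes were treated. The count table gives ALDOA another model, with 6153 bases and a start at 30053090, against 3916 exonic bases and a start at 30064164 in GENCODE 29. The overlap in the model that was counted may therefore differ, and the RPKM of ALDOA uses the longer length. A similar overlap touches LDHB, the other main lactate dehydrogenase subunit: AC010197.2 shares 33.4% of its exonic bases, and the 15 libraries held 1 count for LDHB and 3 for AC010197.2, so no change of LDHB was detectable here. The LDHA row took 94.9% ± 1.83 of the counts of LDHA, LDHB and LDHC together after 24 h of THZ1, against 99.8% ± 0.0250 in DMSO (SD, n = 3 each).

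The promoters of LDHA, HK2, GAPDH and ENO1 are shown because LDHA and HK2 fell after 24 h of THZ1 while GAPDH and ENO1 rose on the TMM scale. Each is the 300 bases from RefSeq (GRCh38.p14) that run from 250 bases before to 50 bases after an annotated start, and capitals mark ACGTG or GCGTG on either strand, the core of the hypoxia response element. The LDHA promoter is at chr11:18394313-18394612 on the plus strand, the HK2 promoter at chr2:74834920-74835219 on the plus strand, the GAPDH promoter at chr12:6535014-6535313 on the plus strand and the ENO1 promoter at chr1:8878637-8878936 on the minus strand. RefSeq gives 2 windows each for LDHA and HK2, and the one shown is the one with E-boxes, chosen after the motifs were counted; the other has 0 E-boxes. The start in the window shown lies 175 bases inside the gene of the table for LDHA, 1189 for HK2, 1337 for GAPDH and 563 for ENO1. The genes themselves span chr11:18394388-18408425 (LDHA), chr2:74833981-74893359 (HK2), chr12:6533927-6538374 (GAPDH) and chr1:8861002-8879249 (ENO1) in the GRCh38 coordinates of the table.
LDHA: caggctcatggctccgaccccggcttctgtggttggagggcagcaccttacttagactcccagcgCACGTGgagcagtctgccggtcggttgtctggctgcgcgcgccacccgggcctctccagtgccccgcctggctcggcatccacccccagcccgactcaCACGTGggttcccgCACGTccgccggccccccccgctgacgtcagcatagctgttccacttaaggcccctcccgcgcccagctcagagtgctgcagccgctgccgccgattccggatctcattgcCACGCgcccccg
HK2: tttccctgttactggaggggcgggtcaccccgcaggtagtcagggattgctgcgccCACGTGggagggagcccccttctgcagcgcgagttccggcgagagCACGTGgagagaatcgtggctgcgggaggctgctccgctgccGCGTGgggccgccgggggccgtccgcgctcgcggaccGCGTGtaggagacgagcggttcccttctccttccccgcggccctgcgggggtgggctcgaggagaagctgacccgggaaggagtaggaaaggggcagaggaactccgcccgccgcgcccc
GAPDH: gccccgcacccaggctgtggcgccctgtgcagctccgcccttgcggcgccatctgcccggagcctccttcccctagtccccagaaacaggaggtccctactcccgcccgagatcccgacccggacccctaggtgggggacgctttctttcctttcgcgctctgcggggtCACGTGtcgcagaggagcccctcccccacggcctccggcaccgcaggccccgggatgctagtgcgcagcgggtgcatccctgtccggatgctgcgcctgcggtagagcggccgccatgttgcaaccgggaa
ENO1: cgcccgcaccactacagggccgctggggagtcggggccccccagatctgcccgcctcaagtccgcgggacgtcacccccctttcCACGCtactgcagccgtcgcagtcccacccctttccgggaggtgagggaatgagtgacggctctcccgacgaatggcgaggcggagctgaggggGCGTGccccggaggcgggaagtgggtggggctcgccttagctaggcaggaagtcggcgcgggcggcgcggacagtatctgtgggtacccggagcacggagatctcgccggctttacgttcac
The palindrome CACGTG, the E-box, contains ACGTG and occurs 2 times in the LDHA window, 2 times in this HK2 window, 1 time in the GAPDH window and 0 times in the ENO1 window. RefSeq gives 18 such windows for the 10 genes, and the E-box lies in 5 of them (27.8%), those of ALDOA, ALDOC, GAPDH, HK2 and LDHA, against 7.26% of all 35116 promoter windows. The core ACGTG or GCGTG lies in 15 of 18 windows (83.3%) against 48.4% of all windows, and the GC box GGGCGG, a site of SP1, lies in 12 of 18 (66.7%) against 45.0%. TATAAA lies in 0 of 18 windows, against 11.5% of all. These shares are not matched for base composition: the 18 windows hold 53.3% to 79.7% G or C, and the other windows were not measured for it. Genes with several windows count more than once, and windows of ALDOA overlap. The shares are therefore a description and no test of enrichment. The windows with an E-box belong to genes that moved in both directions after 24 h of THZ1.

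THZ1 for 24 h gave the widest changes. Of the 10 genes 8 rose and 2 fell on the TMM scale at an adjusted p under 0.05 by edgeR's quasi-likelihood test, where 76.2% of all genes tested were called, 32.3% as higher and 44% as lower. The median log2 fold change of the 10 genes was 2.07, against -0.37 over all genes tested. Every called gene among the 10 had its 3 THZ1 libraries outside the range of the 3 DMSO libraries. How many of all genes tested did so was not counted, so this is not shown to be particular to these genes.

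LDHA fell most. It had 182, 197 and 191 CPM in replicates 1, 2 and 3 after 24 h of THZ1, against 2006, 1664 and 1952 CPM in DMSO. The 3 THZ1 libraries lay close together and far below every other library of the series, and the fold change was 9.87-fold lower (log2 fold change -3.30 ± 0.11 SE, adjusted p = 4.32e-12 by edgeR's quasi-likelihood test). As raw counts LDHA had 1508 to 1928 per library after 24 h of THZ1 and 43016 to 46339 in DMSO. Its place among 12212 protein-coding genes ordered by RPKM was 1758 after 24 h of THZ1, against 96 in DMSO. The processed pseudogene LDHAP4, which resembles LDHA, summed to 31 counts after 24 h of THZ1 against 313 in DMSO.

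HK2 fell as well. It had 17.0, 15.3 and 13.7 CPM after 24 h of THZ1, against 82.5, 84.2 and 81.3 CPM in DMSO, with no overlap. This was 5.40-fold lower (log2 fold change -2.43 ± 0.13 SE, adjusted p = 1.85e-10 by edgeR). By RPKM its place among protein-coding genes was 5675 after 24 h of THZ1, against 2857 in DMSO.

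The enzymes that lie between these 2 ends of the pathway rose on the TMM scale. GAPDH had 10322, 8658 and 8257 CPM after 24 h of THZ1, against 1714, 1251 and 1612 CPM in DMSO, a 5.95-fold rise (log2 fold change 2.57 ± 0.14 SE, adjusted p = 2.76e-10 by edgeR). PGK1, which makes the first ATP of the lower pathway, had 2280, 2024 and 1899 CPM after 24 h of THZ1, against 438, 312 and 414 CPM in DMSO, a 5.33-fold rise. TPI1 had 3457, 3199 and 3065 CPM after 24 h of THZ1, against 743, 527 and 746 CPM in DMSO, a 4.82-fold rise. In these 3 genes replicate 1 was the highest of the THZ1 libraries and replicate 2 the lowest of the DMSO libraries. ENO1 had 13644, 11699 and 11571 CPM after 24 h of THZ1, against 3470, 2575 and 3412 CPM in DMSO, a 3.90-fold rise. GPI rose 3.90-fold and PFKP rose 2.56-fold, the smallest rise of the 8, with 983, 981 and 1004 CPM after 24 h of THZ1 against 376, 389 and 394 CPM in DMSO. ALDOC, the aldolase best known from brain, rose 7.96-fold from a low level: it had 21.1, 29.4 and 26.5 CPM after 24 h of THZ1, against 3.37, 3.56 and 2.74 CPM in DMSO. ALDOA had 28, 40 and 19 counts after 24 h of THZ1, against 12, 20 and 18 counts in DMSO, and was called higher with a log2 fold change of 2.18 ± 0.32 SE (adjusted p = 1.5e-05 by edgeR). In raw counts the ALDOA groups overlap.

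**Figure D1:**
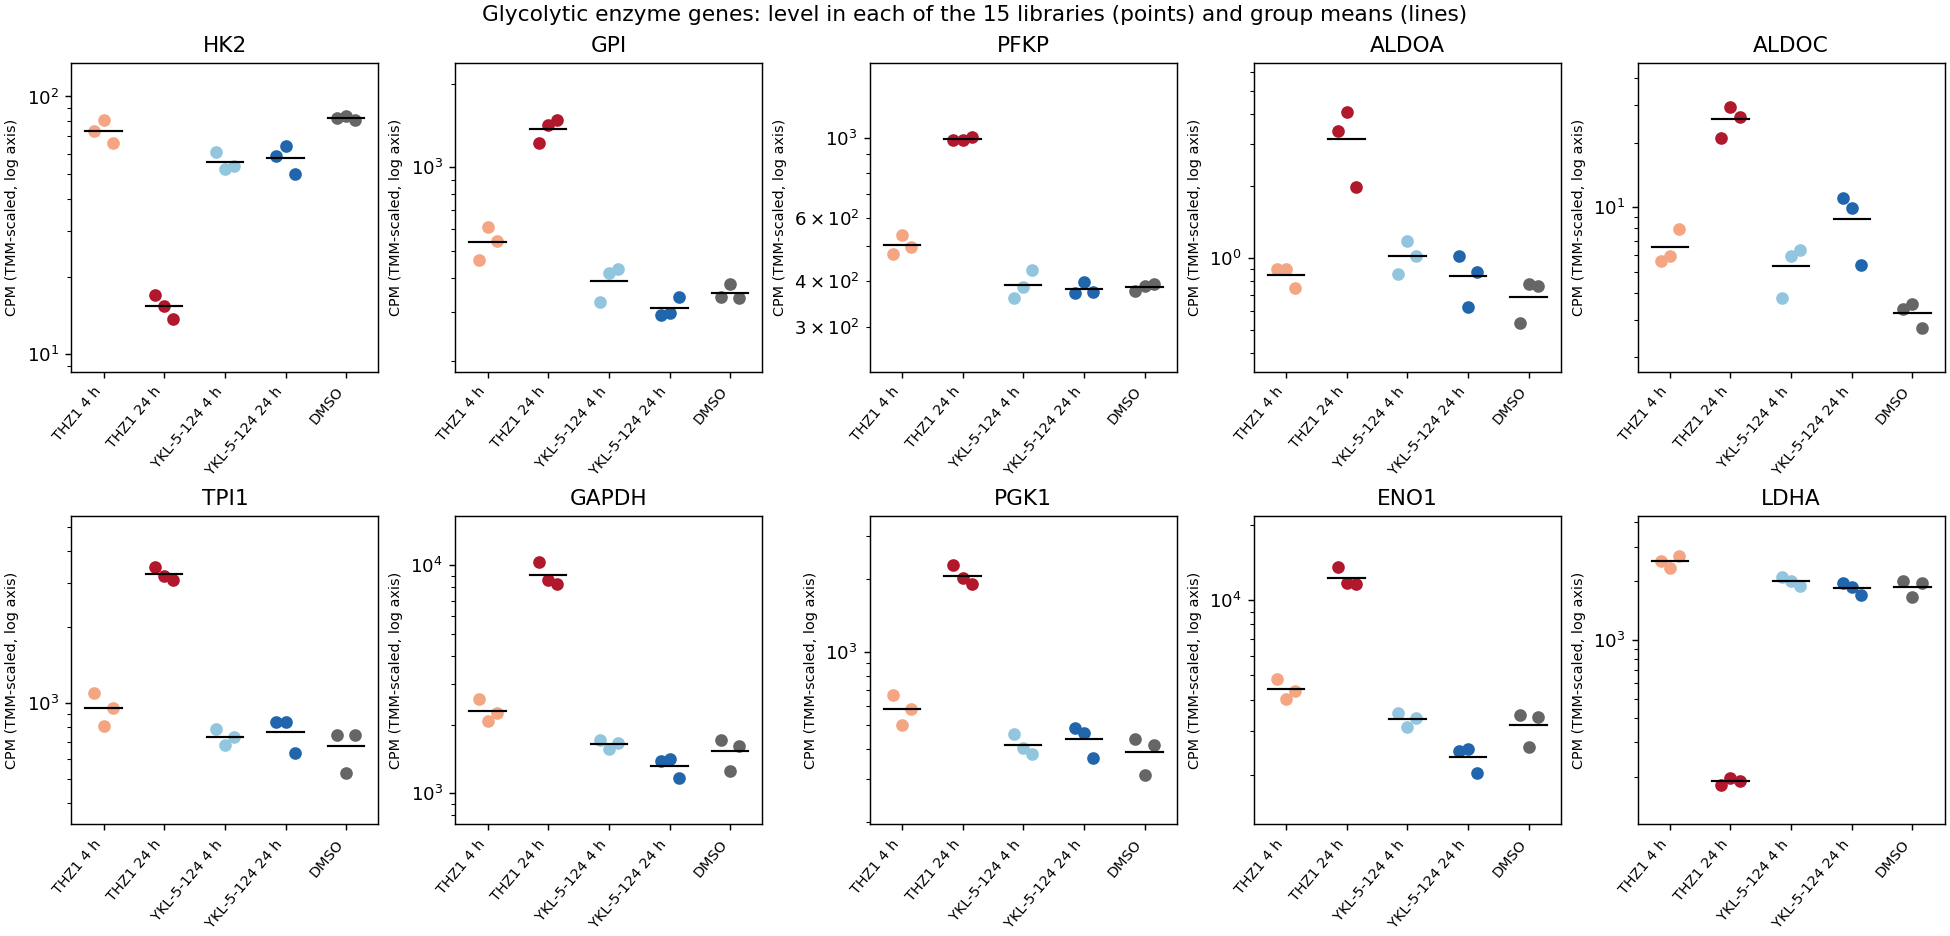
CPM on the TMM scale (log axis) of the 10 genes in each of the 15 libraries (points) with group means (lines), for THZ1 4 h, THZ1 24 h, YKL-5-124 4 h, YKL-5-124 24 h and DMSO. After 24 h of THZ1, LDHA (182 to 197 CPM) and HK2 (13.7 to 17.0 CPM) lie below all other libraries, and the other 8 genes lie above the DMSO libraries on this scale; scaled to ribosomal protein mRNAs, GPI, PFKP, ALDOA and ENO1 have fold changes below 0.

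The size of these rises, and for some genes the direction, depends on what the libraries are scaled to. Over all genes the median log2 fold change was -0.37 with TMM, -0.04 with relative log expression factors, 0.03 with upper quartiles, -1.49 with library totals and -2.55 with the summed ribosomal protein mRNAs. LDHA and HK2 were called lower under each of these scalings, LDHA by -5.47 to -2.91 and HK2 by -4.63 to -2.04 in log2 fold change. Of the genes higher on the TMM scale, ALDOC, GAPDH and PGK1 were still called higher when scaled to ribosomal protein mRNAs (0.80, 0.40 and 0.25), TPI1 had 0.11 without passing the test, GPI (-0.23) and ALDOA (-0.022) turned sign without passing it, and ENO1 (-0.20) and PFKP (-0.83) were called lower, where 3.97% of all genes were called higher and 81.1% lower. A change of scaling shifts the log2 fold changes of all genes by nearly the same amount. The difference from the median of all genes is therefore nearly fixed by construction, and its steadiness is no test of the rises. That log2 difference was -2.94 to -2.92 for LDHA, -2.08 to -2.07 for HK2, 1.72 for PFKP and 2.93 to 2.96 for GAPDH. A share of all counts is a value scaled to the library total, and depends on that choice. As such a share the 10 genes together held 1.59% ± 0.102 after 24 h of THZ1, against 0.999% ± 0.0776 in DMSO, whereas LDHA held 0.0103% ± 0.000558 after 24 h of THZ1, against 0.222% ± 0.0102 in DMSO (SD, n = 3 each). LDHA made up 0.653% ± 0.0743 of the counts of the 10 genes after 24 h of THZ1, against 22.3% ± 0.762 in DMSO.

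**Figure D2:**
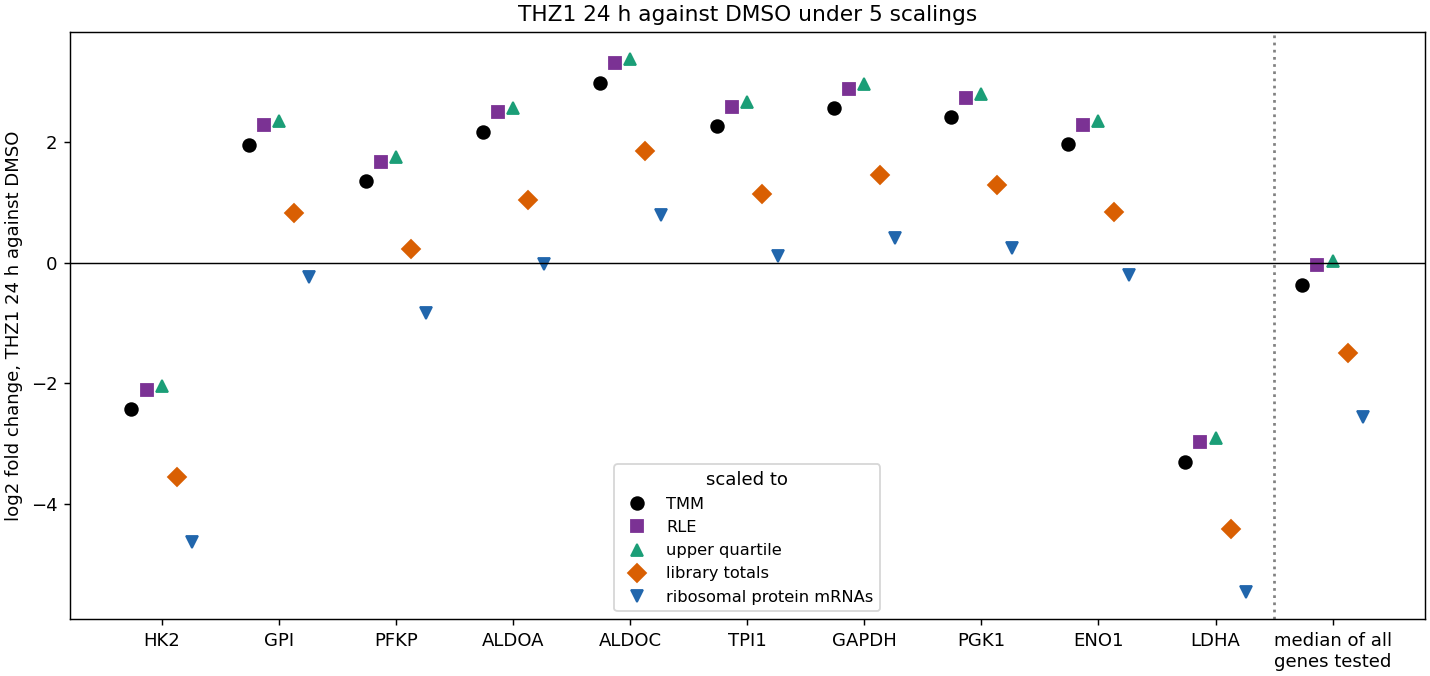
Log2 fold change of each gene in THZ1 24 h against DMSO under 5 scalings (symbols), with the median of all genes tested at the right. LDHA (-5.47 to -2.91) and HK2 (-4.63 to -2.04) lie below 0 under all 5, and GPI, PFKP, ALDOA and ENO1 lie above 0 under the first 4 and below 0 when scaled to ribosomal protein mRNAs.

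After 4 h of THZ1 the changes were smaller, and LDHA was higher on the TMM scale, not lower (its log2 fold change was -0.072 with ribosomal protein scaling). On the TMM scale 8 of the 10 genes rose and 0 fell, where 42% of all genes tested were called, 16.9% as higher and 25.1% as lower, and the median log2 fold change of the 10 genes was 0.49 against 0 over all genes. LDHA had 2525, 2349 and 2706 CPM after 4 h of THZ1, against 2006, 1664 and 1952 CPM in DMSO, with no overlap (1.35-fold, log2 fold change 0.43 ± 0.10 SE, adjusted p = 0.00273 by edgeR). GAPDH had 2591, 2071 and 2258 CPM after 4 h of THZ1, against 1714, 1251 and 1612 CPM in DMSO (1.51-fold, adjusted p = 0.00245 by edgeR). ALDOC rose 2.01-fold, GPI 1.53-fold, TPI1 1.42-fold, ENO1 1.40-fold and PFKP 1.30-fold, and PGK1 rose by a log2 fold change of 0.59 ± 0.15 SE. HK2 had 73.2, 80.8 and 65.9 CPM after 4 h of THZ1, against 82.5, 84.2 and 81.3 CPM in DMSO; the groups did not overlap, and the gene did not pass the test (log2 fold change -0.17 ± 0.12 SE, adjusted p = 0.256 by edgeR). ALDOA had 19, 17 and 16 counts after 4 h of THZ1 and 12, 20 and 18 counts in DMSO, and did not pass it either (adjusted p = 0.502 by edgeR).

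These early rises rest on the scaling. With library totals 3 genes were called higher and 1 lower, and with ribosomal protein mRNAs 0 were called higher and 1 lower, namely HK2 in both cases. Of all genes 4.03% were called higher and 32% lower with library totals, and 0.201% higher and 38.1% lower with ribosomal protein mRNAs; on that last scale PFKP (-0.13), ALDOA (-0.24), ENO1 (-0.020) and LDHA (-0.072) changed sign. Without replicate 2 of DMSO, TPI1 missed the threshold (log2 fold change 0.36, adjusted p = 0.062 by edgeR) and 7 genes were called higher. Of all genes 2111 of 14876 were called higher in that fit.

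Between the 2 times of THZ1, 8 genes were higher at 24 h and 2 were lower on the TMM scale, where 67.1% of all genes were called, 31.4% as higher and 35.7% as lower. LDHA was lower at 24 h than at 4 h by -3.73 ± 0.11 SE and HK2 by -2.26 ± 0.13 SE in log2 fold change (adjusted p = 4.74e-12 and 8.25e-10 by edgeR). The rises at 24 h over 4 h ran between 0.98 for PFKP and 1.98 for ALDOC and GAPDH. With ribosomal protein scaling GPI (-0.33), PFKP (-0.71) and ENO1 (-0.18) turned sign, and LDHA and HK2 kept theirs. With the replicate number as a block in these 2 groups, LDHA had -3.71 and HK2 -2.24, and no call changed.

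YKL-5-124 for 4 h left most of these transcripts near their DMSO level. HK2 was called lower, 0 genes were called higher, where 0.519% of all genes tested were called, 0.0553% as higher and 0.463% as lower. HK2 had 60.9, 52.4 and 53.8 CPM after 4 h of YKL-5-124, against 82.5, 84.2 and 81.3 CPM in DMSO, with no overlap (log2 fold change -0.57 ± 0.12 SE, adjusted p = 0.0471 by edgeR). The call was lost without any 1 of the 6 libraries, with adjusted p between 0.0518 and 0.279. The remaining 9 genes had log2 fold changes of 0.02 to 0.73, the highest being ALDOC at 0.73, whose 95% interval was 0.15 to 1.31 and whose adjusted p was 0.333 by edgeR. The 95% interval of LDHA was -0.12 to 0.30 and that of GAPDH was -0.18 to 0.40.

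YKL-5-124 for 24 h moved 3 of the 10 genes, where 21.6% of all genes tested were called, 8.92% as higher and 12.7% as lower. ALDOC had 11.1, 9.96 and 5.37 CPM after 24 h of YKL-5-124, against 3.37, 3.56 and 2.74 CPM in DMSO, and rose 2.72-fold (log2 fold change 1.45 ± 0.27 SE, adjusted p = 0.00159 by edgeR). All 3 YKL-5-124 libraries lay above DMSO, with replicate 3 well below the other two. HK2 had 58.8, 64.2 and 49.9 CPM after 24 h of YKL-5-124, against 82.5, 84.2 and 81.3 CPM in DMSO, and fell 1.44-fold (log2 fold change -0.52 ± 0.12 SE, adjusted p = 0.00593 by edgeR), except with ribosomal protein scaling, which gave 0.042. ENO1 had 2496, 2535 and 2025 CPM after 24 h of YKL-5-124, against 3470, 2575 and 3412 CPM in DMSO, and was called lower (log2 fold change -0.42 ± 0.13 SE, adjusted p = 0.0356 by edgeR). The ENO1 call was lost without 5 of the 6 libraries, with adjusted p up to 0.138, and ribosomal protein scaling gave 0.17. LDHA had 1952, 1868 and 1705 CPM after 24 h of YKL-5-124, against 2006, 1664 and 1952 CPM in DMSO. These ranges overlap, and the 95% interval of the log2 fold change was -0.24 to 0.19 around -0.03. The remaining 6 genes, among them GAPDH with -0.21 and TPI1 with 0.20, did not pass the test. These results too depend on the scaling. With ribosomal protein scaling LDHA (0.57), GAPDH (0.39), PFKP (0.57), TPI1 (0.79) and PGK1 (0.77) were called higher, and GPI (0.41) and ALDOA (0.85) did not pass. Of all genes 35.4% were called higher and 1.38% lower on that scale. Between the 2 times of YKL-5-124, where 21.1% of all genes were called (9.22% higher, 11.9% lower), ENO1 was lower at 24 h than at 4 h (log2 fold change -0.50 ± 0.13 SE, adjusted p = 0.0151 by edgeR) and the other 9 genes did not pass; without replicate 1 at 4 h or replicate 3 at 24 h the adjusted p of ENO1 was 0.0528 and 0.0664 by edgeR. ALDOC passed there without replicate 3 at 24 h (0.98, adjusted p = 0.0112 by edgeR) and GPI without replicate 1 at 4 h (-0.44, adjusted p = 0.0299 by edgeR).

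**Figure D3:**
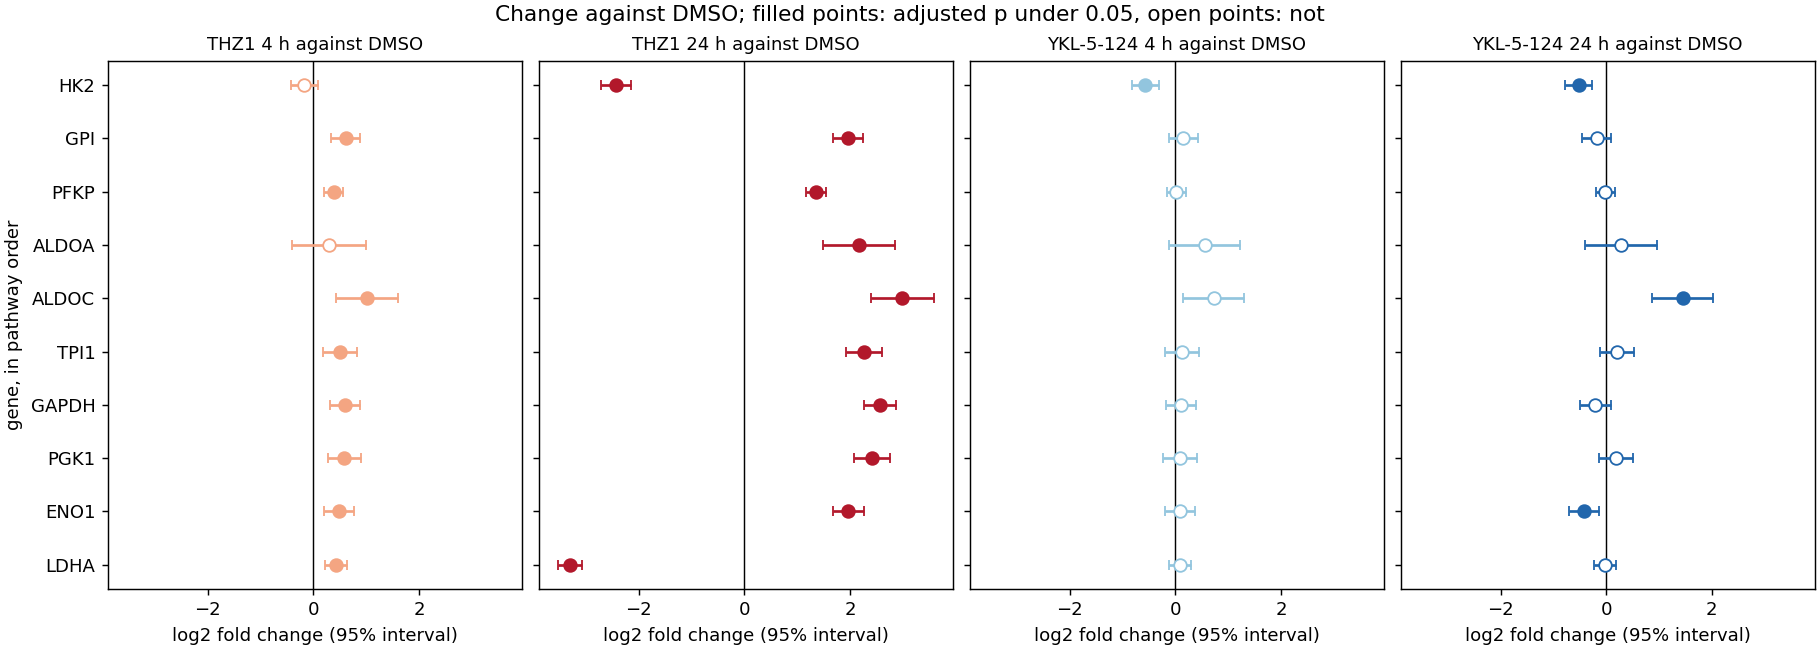
Log2 fold change on the TMM scale, with 95% intervals, of the 10 genes in pathway order, in each treated group against DMSO; filled points passed an adjusted p under 0.05. The 10 filled points of THZ1 24 h lie between -3.30 for LDHA and 2.99 for ALDOC, and ribosomal protein scaling turns the sign of GPI, PFKP, ALDOA and ENO1 there.

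The 2 compounds were compared at the same dose at each of 2 times. At 4 h THZ1 gave higher levels than YKL-5-124 for 7 of the 10 genes on the TMM scale, where 33.3% of all genes were called, 11.4% as higher and 21.9% as lower. The called differences were small, between 0.34 for LDHA and 0.49 for PGK1 in log2. The 3 genes that did not pass were ALDOA (-0.26, 95% interval -0.94 to 0.42), ALDOC (0.28, interval -0.28 to 0.85) and TPI1 (0.38, interval 0.06 to 0.70, adjusted p = 0.0671 by edgeR). In a fit of these 2 groups with the replicate number as a block, TPI1 passed (0.36, adjusted p = 0.00152 by edgeR), as it did without replicate 2 of THZ1 at 4 h (0.49, adjusted p = 0.0345 by edgeR). The replicate numbers are not established as pairs, so the block is only an alternative. Leaving out 1 library gave 3 to 6 called genes: without replicate 3 of YKL-5-124 at 4 h, HK2, PGK1, ENO1 and LDHA were lost, without replicate 2, HK2, PGK1 and ENO1, and without replicate 1, GPI. Of the THZ1 libraries at 4 h, leaving out replicate 1 lost PGK1 and ENO1, replicate 2 lost HK2 and GPI, and replicate 3 lost GPI, with adjusted p of 0.0552 to 0.117 by edgeR over all these losses. These fits called fewer of all genes higher too, between 993 of 14942 and 1532 of 14939, against 1649 of 14461 with every library. With library totals or ribosomal protein mRNAs as the scale 0 of the 10 genes were called, where library totals called 1.38% of all genes higher and 28.8% lower and ribosomal protein mRNAs 0.18% higher and 30.8% lower. With ribosomal protein mRNAs HK2, PFKP, ALDOC, TPI1, ENO1 and LDHA changed sign, with values of -0.16 to -0.013.

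At 24 h all 10 genes differed between the compounds on the TMM scale, where 75.9% of all genes were called, 31.8% as higher and 44.1% as lower. LDHA was 9.70-fold lower with THZ1 than with YKL-5-124 (log2 fold change -3.28 ± 0.11 SE, adjusted p = 4.87e-12 by edgeR) and HK2 was 3.76-fold lower (-1.91 ± 0.13 SE, adjusted p = 2.25e-09 by edgeR). The other 8 genes were higher with THZ1, from 1.38 for PFKP to 2.78 for GAPDH in log2. Scaled to ribosomal protein mRNAs, LDHA (-6.04) and HK2 (-4.67) were still called lower, and of the other 8 genes the 7 without GAPDH were called lower too, where 89.5% of all genes were called lower and 1.92% higher. With library totals 5 of the 8 were called higher, where 13.8% of all genes were called higher and 68.6% lower. The change between 4 h and 24 h differed between the compounds for all 10 genes on the TMM scale, 8 with a positive and 2 with a negative difference, where 57.6% of all genes were called (26.6% positive, 31% negative); with ribosomal protein scaling 0 were positive and 7 negative at the same threshold, LDHA and HK2 among them, where 1.36% of all genes were positive and 78.6% negative.

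Ratios of 2 genes in the same library do not depend on the scaling, and show how the genes moved against each other. The design of 3 libraries against 3 cannot give an exact two-sided permutation p below 0.1, so the ratios are described without a test. LDHA per GAPDH, each as counts per kilobase, was 0.0102 ± 0.00147 after 24 h of THZ1, against 0.594 ± 0.0399 in DMSO (SD, n = 3 each), a 58.5-fold lower mean. In the other 3 treated groups its range overlapped that of DMSO, with means of 0.529 in the 4 h THZ1 libraries, 0.583 in those of YKL-5-124 at 4 h and 0.671 at 24 h. HK2 per HK1, the hexokinase of most tissues, was 0.0741 ± 0.00589 after 24 h of THZ1, against 0.535 ± 0.0205 in DMSO, and lay below the DMSO range in all 4 treated groups, at 0.378 in the 4 h THZ1 libraries, 0.337 in those of YKL-5-124 at 4 h and 0.442 at 24 h. Against both alternative phosphofructokinases PFKP lost ground after 24 h of THZ1: PFKP per PFKL, the liver type, was 4.09 ± 0.572 against 10.5 ± 1.36 in DMSO, and PFKP per PFKM, the muscle type, was 2.78 ± 0.0996 against 5.48 ± 0.201 in DMSO. After 24 h of YKL-5-124 these 2 ratios parted, with 8.62 ± 0.341 for PFKP per PFKL, below the DMSO range, and 7.21 ± 0.291 for PFKP per PFKM, above it.

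Within the lower pathway, ENO1 per GAPDH was 1.02 ± 0.0303 after 24 h of THZ1 and 1.34 ± 0.0284 after 24 h of YKL-5-124, both below the 1.56 ± 0.0350 of DMSO. TPI1 per GAPDH was 0.396 ± 0.0226 after 24 h of THZ1, below DMSO, and 0.641 ± 0.0387 after 24 h of YKL-5-124, above the 0.485 ± 0.0232 of DMSO. PGK1 per GAPDH went the same 2 ways, at 0.126 ± 0.00365 after 24 h of THZ1 and 0.182 ± 0.0109 after 24 h of YKL-5-124, against 0.140 ± 0.00213 in DMSO. ALDOC per GAPDH was 0.00666 ± 0.00178 after 24 h of YKL-5-124, above the 0.00221 ± 0.000610 of DMSO, and overlapped the DMSO range after 24 h of THZ1 (0.00294 ± 0.000744). By RPKM ENO1 and GAPDH, the 2 highest genes, overlapped after 24 h of THZ1 (3109 ± 294 and 3046 ± 367 RPKM) and were apart in DMSO, and LDHA stood 7th of 10 after 24 h of THZ1 and 3rd in DMSO.

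**Figure D4:**
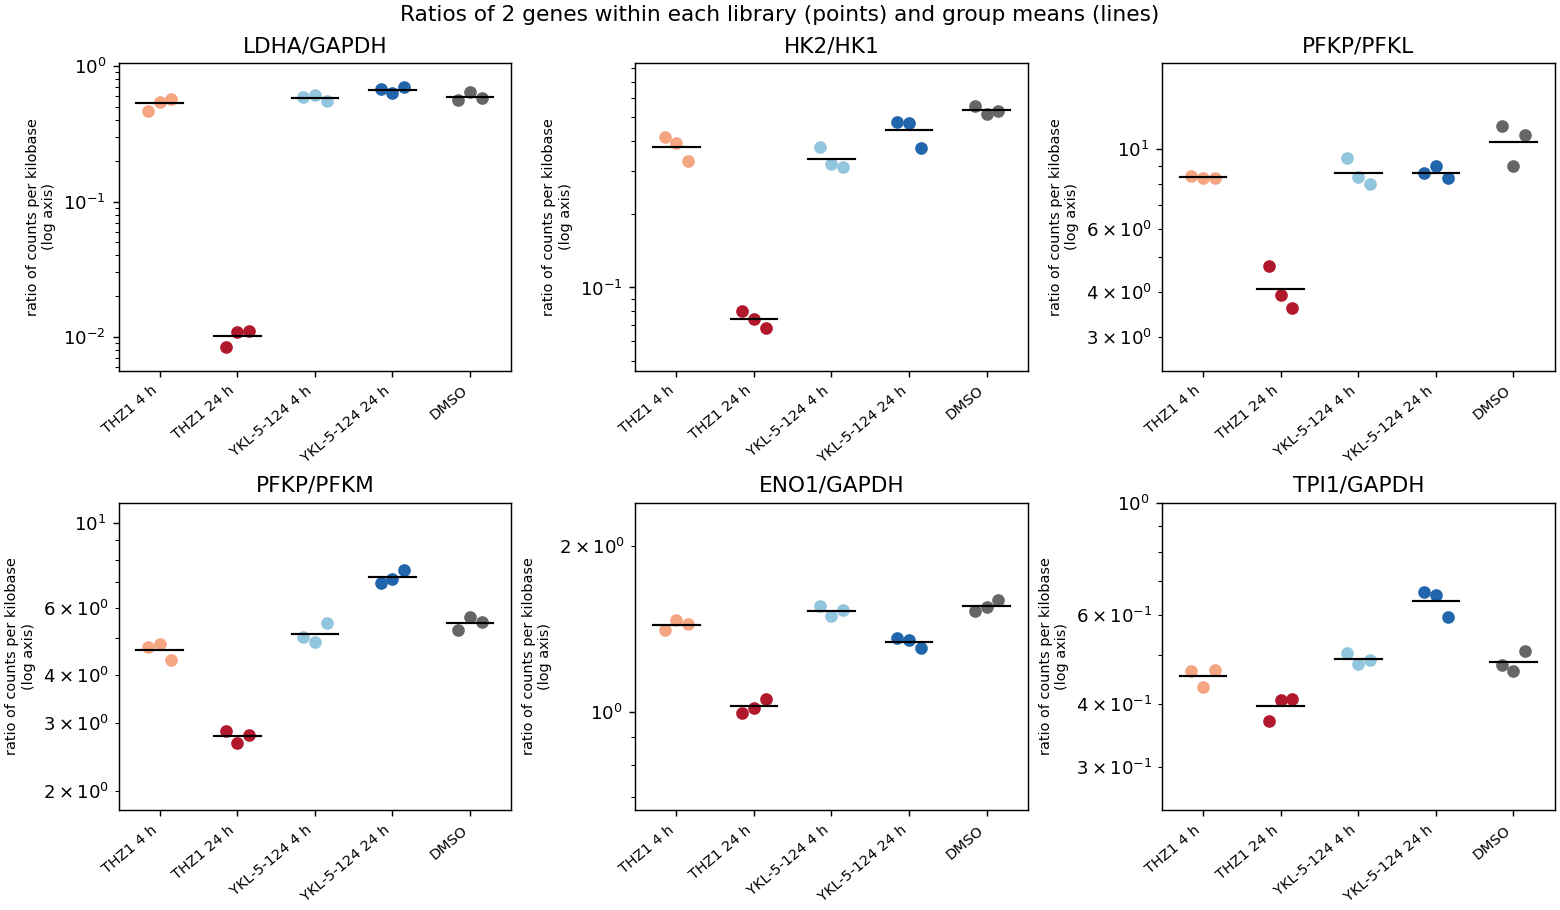
Ratios of counts per kilobase between 2 genes of the same library (points, log axis) and group means (lines), for THZ1 4 h, THZ1 24 h, YKL-5-124 4 h, YKL-5-124 24 h and DMSO. LDHA/GAPDH averaged 0.0102 after 24 h of THZ1 and 0.594 in DMSO, and TPI1/GAPDH and PFKP/PFKM lie above DMSO after 24 h of YKL-5-124 and below it after 24 h of THZ1.

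Of 19 other isozymes and steps of glycolysis listed, 11 were tested, and after 24 h of THZ1 10 rose and 1 fell on the TMM scale, with a median log2 fold change of 1.68, where 32.3% of all genes were called higher and 44% lower. PFKL rose by 2.72 ± 0.15 SE, and PKM, the pyruvate kinase of most tumours, by 2.43 ± 0.15 SE in log2. BPGM, which makes the haemoglobin effector bisphosphoglycerate, fell by 1.38 ± 0.21 SE. HK1 had a log2 fold change of 0.42 after 24 h of THZ1 on the TMM scale, -0.72 with library totals and -1.78 with ribosomal protein scaling. Scaled to ribosomal protein mRNAs 1 of the 11 was called higher and 6 lower, where 3.97% of all genes were called higher and 81.1% lower. After 4 h of THZ1 6 were called higher, led by PFKL (0.69) and PFKM (0.62), and 0 lower, against 0 higher and 1 lower with ribosomal protein scaling. Of all genes 16.9% were called higher and 25.1% lower there, and 0.201% and 38.1% with ribosomal protein scaling. After 4 h of YKL-5-124 0 were called, where 0.519% of all genes were. With YKL-5-124 for 24 h 0 were called higher and 3 lower, namely LDHC (-0.83), ENO2, the neuronal enolase (-0.71), and PFKM (-0.41, or 0.17 with ribosomal protein scaling), where 8.92% of all genes were called higher and 12.7% lower. Scaling to ribosomal protein mRNAs gave 6 higher and 0 lower, where 35.4% of all genes were called higher and 1.38% lower. The LDHC call was lost without replicate 1 or 3 of DMSO or replicate 2 or 3 of YKL-5-124 at 24 h (adjusted p up to 0.126 by edgeR).

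PFKFB1 to PFKFB4 and TIGAR set the level of an activator of phosphofructokinase, a fructose bisphosphate distinct from the one that phosphofructokinase makes. Of the 4 regulators tested among them, PFKFB3 and PFKFB4 moved in opposite directions with the 2 compounds at 24 h. For THZ1 at that time, 1 of the 4 was called higher and 2 lower on the TMM scale. Of all genes 32.3% were called higher and 44% lower in that comparison with DMSO. For YKL-5-124 at the same time, 2 of the 4 were called higher and 0 lower. The shares of all genes were 8.92% and 12.7% there. PFKFB3 averaged 10.8 CPM after 24 h of THZ1 and 58.3 CPM after 24 h of YKL-5-124, against 42.1 CPM in DMSO. It fell with THZ1 (log2 fold change -1.96 ± 0.12 SE, adjusted p = 9.32e-10 by edgeR) and rose with YKL-5-124 (0.47 ± 0.11 SE, adjusted p = 0.00755 by edgeR). PFKFB4 averaged 0.728 CPM after 24 h of THZ1 and 8.34 CPM after 24 h of YKL-5-124, against 2.37 CPM in DMSO, with log2 fold changes of -1.70 ± 0.34 SE and 1.82 ± 0.25 SE. Scaled to ribosomal protein mRNAs, 0 of the 4 were called higher and 4 lower after 24 h of THZ1, where 81.1% of all genes were called lower, and 4 higher and 0 lower after 24 h of YKL-5-124, where 35.4% were called higher. Both PFKFB3 and PFKFB4 were already lower after 4 h of THZ1 (-0.72 for PFKFB3 and -0.98 for PFKFB4, whose adjusted p was 0.0530 by edgeR without replicate 3 of THZ1 at 4 h), and 0 of the 4 were called after 4 h of YKL-5-124. Of all genes 25.1% were called lower after 4 h of THZ1, and 0.519% in either direction after 4 h of YKL-5-124.

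Of 7 carriers of glucose and lactate tested, 1 rose and 5 fell after 24 h of THZ1, with a median of -1.39, where 32.3% of all genes were called higher and 44% lower. Scaled to ribosomal protein mRNAs 1 rose and 6 fell, where 3.97% of all genes were called higher and 81.1% lower. SLC16A1, the lactate carrier MCT1, averaged 47.7 CPM after 24 h of THZ1 against 182 CPM in DMSO (log2 fold change -1.93 ± 0.10 SE, adjusted p = 1.79e-10 by edgeR), and SLC16A3, the lactate exporter MCT4, fell by 2.71 ± 0.44 SE from a low level. SLC2A1, the glucose carrier GLUT1, averaged 58.1 CPM after 24 h of THZ1 against 153 CPM in DMSO (-1.39). BSG, the chaperone of both lactate carriers, rose by 2.96 ± 0.09 SE to 5199 CPM, against 666 CPM in DMSO. After 4 h of THZ1 BSG (0.50) and SLC16A1 (0.27) were called higher and SLC16A3 lower (-1.11), where 16.9% of all genes were called higher and 25.1% lower. With ribosomal protein scaling BSG and SLC16A1 had -0.0046 and -0.23. After 24 h of YKL-5-124 SLC2A6 (1.42) and SLC2A1 (0.31) rose and SLC16A7 fell (-0.52, or 0.087 with ribosomal protein scaling), and 0 were called after 4 h. Of all genes 8.92% were called higher and 12.7% lower at 24 h, and 0.519% in either direction at 4 h. Leaving out 1 library ended several of these calls: SLC16A1 at 4 h of THZ1 without replicate 2 or 3 of DMSO or 3 of THZ1 (adjusted p up to 0.135 by edgeR), SLC16A3 there without replicate 3 of DMSO or 2 or 3 of THZ1 (up to 0.0855), SLC2A1 at 24 h of YKL-5-124 without replicate 2 or 3 of either group (up to 0.168), and SLC16A7 there without replicate 1 or 3 of DMSO or 1 or 2 of YKL-5-124 (up to 0.119). The SLC2A6 call held without each library.

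At the entry of pyruvate into mitochondria, 6 of 13 genes rose and 6 fell after 24 h of THZ1, where 32.3% of all genes were called higher and 44% lower. Scaled to ribosomal protein mRNAs 0 rose and 13 fell, where 81.1% of all genes were called lower. PDP1 and PDP2, the phosphatases that activate pyruvate dehydrogenase, fell by 2.62 ± 0.23 SE and 1.88 ± 0.45 SE, and were already lower after 4 h (-1.88 and -2.70). PDHA1, its catalytic subunit, and PDK1, an inhibiting kinase, rose 2.85-fold and 2.29-fold after 24 h of THZ1, and had log2 fold changes of -0.66 and -0.97 with ribosomal protein scaling. After 4 h of THZ1 4 rose, among them PDK3 (0.54) and PDHA1 (0.52), and 3 fell, where 16.9% of all genes were called higher and 25.1% lower. After 24 h of YKL-5-124 PDK2 rose (0.55) and 3 fell, among them DLAT (-0.54) and PDK1 (-0.46), where 8.92% of all genes were called higher and 12.7% lower. Both DLAT and PDK1 turned sign with ribosomal protein scaling (0.069 and 0.13), under which 5 of the 13 rose and 0 fell, where 35.4% of all genes were called higher. Calls lost without 1 library were those of PDK3 at 4 h of THZ1 without replicate 2 of DMSO (adjusted p = 0.0645 by edgeR), and at 24 h of YKL-5-124 PDK2 without its replicate 1 (0.0504), DLAT without replicate 1 or 3 of either group (up to 0.114) and PDK1 without replicate 1 or 3 of DMSO or 2 or 3 of YKL-5-124 (up to 0.204).

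In the pentose phosphate pathway 6 of 8 genes rose and 1 fell after 24 h of THZ1, among them RPIA (2.78), with RPE lower (-1.08), and 5 rose and 0 fell after 4 h, with RPIA at 0.65. Of all genes 32.3% were called higher and 44% lower at 24 h, and 16.9% higher and 25.1% lower at 4 h. RPIA fell after 24 h of YKL-5-124 (-0.39, or 0.21 with ribosomal protein scaling). Of 4 gluconeogenesis genes tested, 3 rose after 24 h of THZ1, among them G6PC3 (2.44) and PC, the pyruvate carboxylase (1.22, or -0.99 with ribosomal protein scaling), and PCK2 fell after 4 h of THZ1 (-1.27). Also after 4 h of THZ1 PC and G6PC3 were called higher (0.50 and 0.48), and both turned sign with ribosomal protein scaling (-0.014 and -0.023). PC rose after 24 h of YKL-5-124 (0.59) and FBP1, at under 1 CPM, was called lower. In the citrate cycle 12 of 16 genes rose and 3 fell after 24 h of THZ1: SUCLG2 (2.47) rose, and SDHA, the flavoprotein of succinate dehydrogenase, averaged 80.4 CPM against 485 CPM in DMSO (-2.59), with DLST also lower (-1.49). After 4 h of THZ1 10 rose and 0 fell, with SUCLG2 at 0.58. With ribosomal protein scaling 0 genes of the pentose phosphate pathway and 0 of the citrate cycle were called in either direction after 4 h of THZ1. Of all genes 0.201% were called higher and 38.1% lower on that scale. With YKL-5-124 for 24 h 0 citrate cycle genes rose and 4 fell, among them IDH3G (-0.80) and CS (-0.62), where 8.92% of all genes were called higher and 12.7% lower. Ribosomal protein scaling gave 9 higher and 0 lower, where 35.4% of all genes were called higher. Scaled to ribosomal protein mRNAs, 1 pentose phosphate gene was called higher and 5 lower, 0 gluconeogenesis genes higher and 2 lower, and 0 citrate cycle genes higher and 13 lower after 24 h of THZ1, where 3.97% of all genes were called higher and 81.1% lower. Calls lost without 1 library were RPIA at 24 h of YKL-5-124 without replicate 1 of DMSO (adjusted p = 0.0619 by edgeR), PC there without replicate 3 of DMSO (0.0529), and at 4 h of THZ1 PC without replicate 3 of DMSO or 2 of THZ1 (up to 0.0652) and PCK2 without replicate 3 of DMSO or 2 or 3 of THZ1 (up to 0.0661).

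Of 8 transcription factors known to act on glycolytic genes, 1 was higher and 6 were lower after 24 h of THZ1, with a median of -1.63, where 32.3% of all genes were called higher and 44% lower. With ribosomal protein scaling 0 were higher and 7 lower, where 3.97% of all genes were called higher and 81.1% lower. SP1, which binds GC boxes, averaged 8.16 CPM against 106 CPM in DMSO (log2 fold change -3.70 ± 0.14 SE, adjusted p = 7.15e-12 by edgeR), and MLX averaged 8.84 CPM against 48.0 CPM in DMSO (-2.44). MYC averaged 14.1 CPM after 4 h of THZ1 against 103 CPM in DMSO (-2.88 ± 0.19 SE, adjusted p = 1.39e-08 by edgeR), and 129 CPM after 24 h, where it did not pass the test (0.32) and had -0.82 with library totals and -1.89 with ribosomal protein scaling, both called. HIF1A, the oxygen-regulated subunit of HIF1, was called higher after 4 h of THZ1 (0.36, or -0.13 with ribosomal protein scaling), lower after 24 h (-0.72), and higher after 24 h of YKL-5-124 (0.44). EPAS1, the related HIF2 subunit, rose after 24 h of THZ1 (1.48, or -0.72 with ribosomal protein scaling) and after 24 h of YKL-5-124 (1.84). SP1 was also lower after 4 h of THZ1 (-1.34), and MLX was lower after 24 h of YKL-5-124 (-0.59, or 0.010 with ribosomal protein scaling), a call lost without replicate 1 or 3 of DMSO or 2 or 3 of YKL-5-124 (adjusted p up to 0.107 by edgeR).

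**Figure D5:**
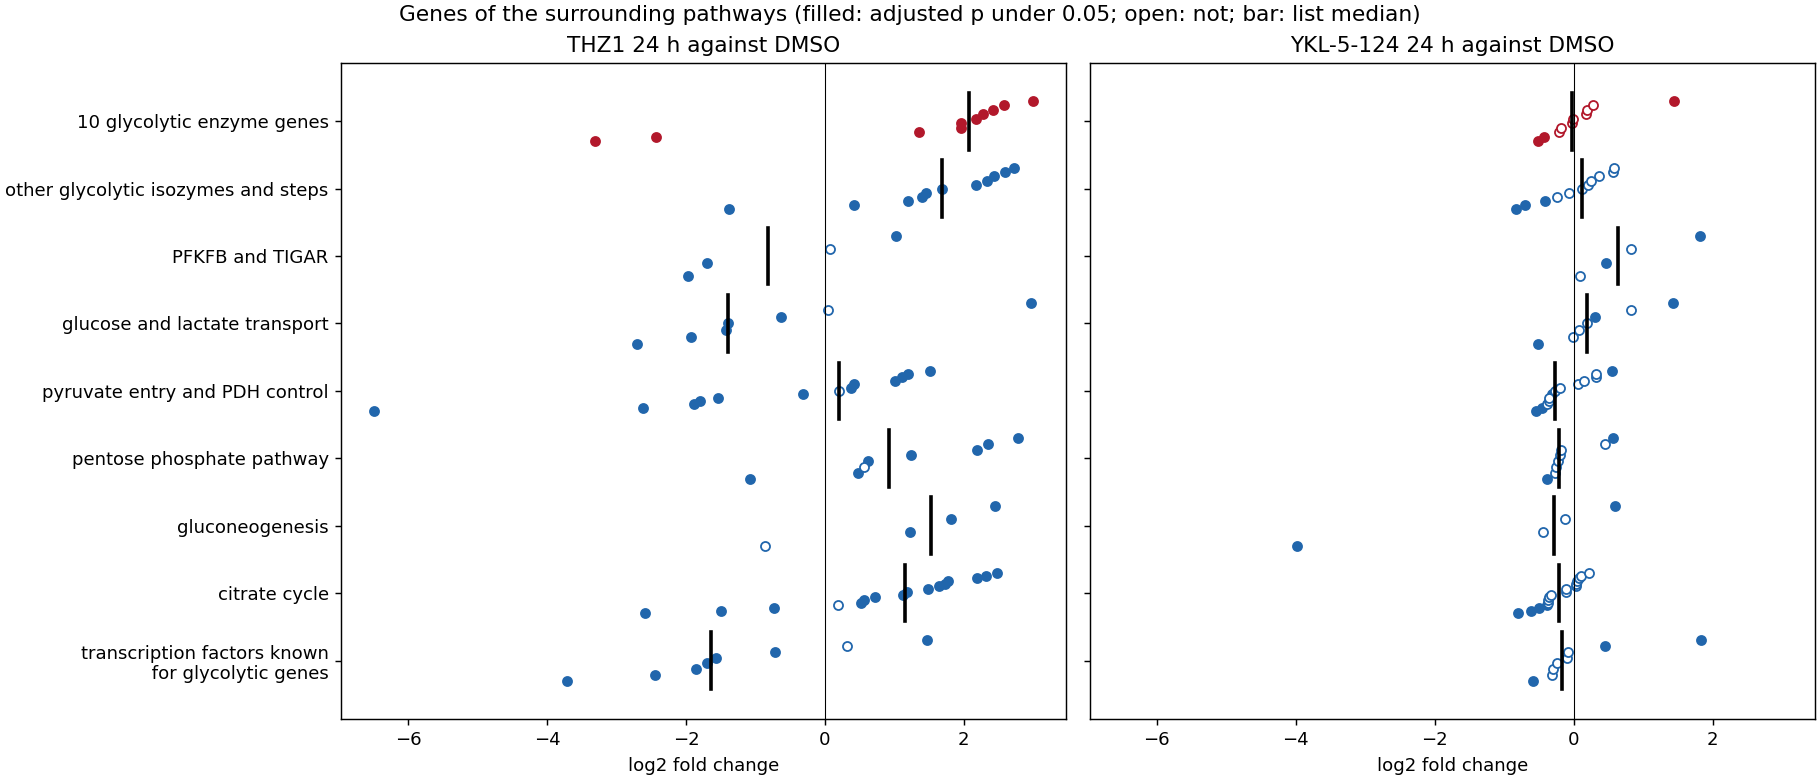
Log2 fold change on the TMM scale of the tested genes of each list (points; filled where the adjusted p was under 0.05) and list medians (bars), for THZ1 24 h against DMSO (left) and YKL-5-124 24 h against DMSO (right). The medians after 24 h of THZ1 are 2.07 for the 10 genes, 1.68 for other isozymes, -1.39 for carriers and -1.63 for transcription factors; scaled to ribosomal protein mRNAs the median of the other isozymes is -0.50.

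The genes most alike to the 10 in their pattern were sought among the 7867 other protein-coding genes that averaged 10 CPM or more. The 5 with the highest Pearson correlation of log2 CPM with the mean standardised profile of the 10 genes over the 15 libraries were PGM1 (r = 0.996), RTFDC1 (0.995), ATOX1 (0.995), SAE1 (0.993) and PFN1 (0.993). Since LDHA and HK2 run against that mean, their own nearest genes were added after the values were seen. They were SLC16A1 (0.997), PGM3 (0.997), SPC25 (0.996), ERLEC1 (0.996) and FXR1 (0.995) for LDHA, and HNRNPDL (0.989), LMNB1 (0.987) and SRSF3 (0.986) for HK2. LDHA and HK2 had a correlation of 0.959 with each other, and HK2 and GAPDH one of -0.892. The points are 3 libraries of each of 5 groups and share the 24 h THZ1 libraries that lie far from the rest, and these values describe the libraries without a test.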

How the data were processed

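Gene expression was measured by RNA sequencing of total RNA in 15 libraries. Read counts per gene are used as the authors deposited them, as raw whole numbers. The tools named, per the submitters' processing notes, are featureCounts 1.5.0-p3, STAR 2.6.1d and DESeq2 1.24.0, with the build GRCh38. Not given in the sources used here are the strand setting, the treatment of reads that match several genes and any filters. The members and gene lists were chosen with earlier results of these data known.

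Counts were fitted with edgeR 4.0.16 (R 4.3.3, limma 3.58.1): TMM scaling, filterByExpr (minimum count 10, minimum total 15; 14461 of 58676 genes, 99.9% of the counts), and quasi-likelihood F tests with the 5 groups as the only term over all 15 libraries, with p-values adjusted by Benjamini-Hochberg over the 14461 genes and called under 0.05. The step was tested on simulated data in which only a small part of the genes changed. That test does not bear on the choice of scaling. CPM and RPKM use TMM library sizes and the gene lengths of the table, and precision is limited by 15567057 to 22869590 counts per library.

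All 10 genes are named. Of each pathway list up to 2 called genes in each direction, with the largest log2 fold change at a mean of at least 1 CPM, are named per comparison with DMSO. Some genes that this rule names are not reported here. HK1, SLC2A1 and FBP1, PFKM after 24 h of YKL-5-124, and MYC and HIF1A after 24 h of THZ1 were added after their values were seen, as were the genes nearest to LDHA and HK2.

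Replicate numbers were checked as pairs by correlating deviations from group means. THZ1 4 h and THZ1 24 h had r = 0.688, 0.364 and 0.386 for same-numbered libraries, and THZ1 4 h and YKL-5-124 4 h had 0.816, 0.798 and 0.109. Some libraries of different number correlated too: THZ1 4 h replicate 2 and THZ1 24 h replicate 3 had 0.635. THZ1 4 h replicate 3 and YKL-5-124 4 h replicate 2 had 0.640. The numbers are thus not established as pairs, and the block was used in these comparisons only as an alternative. Other alternatives were scaling by relative log expression, upper quartiles, library totals or the 86 ribosomal protein mRNAs, no filter or a filter of 1 CPM, a fit of only the groups compared, a transcript length covariate, DESeq2 1.42.0, and leaving out each library. Promoter sequences are from RefSeq, GRCh38.p14, and gene overlaps from GENCODE 29.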

Additional observations from a re-analysis of the deposited data

Results flagged for a closer look

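The difference between 24 h and 4 h of THZ1, less the same difference for YKL-5-124, passed the test for all 10 genes on the TMM scale (adjusted p by edgeR's quasi-likelihood test, log2 values with SE). On that scale 57.6% of all genes tested passed, 26.6% with a positive and 31% with a negative difference. LDHA had -3.62 ± 0.14 (adjusted p = 2.65e-10) and HK2 had -2.31 ± 0.17 (adjusted p = 3.88e-08). GAPDH had 2.29 ± 0.19, ALDOA 2.16 ± 0.44, ENO1 1.99 ± 0.19, PGK1 1.74 ± 0.21, TPI1 1.69 ± 0.22, GPI 1.68 ± 0.18, ALDOC 1.26 ± 0.37 and PFKP 1.02 ± 0.12, with adjusted p between 1.08e-07 for GAPDH and 0.00862 for ALDOC by edgeR. With ribosomal protein scaling these 8 values were negative, from -1.34 for PFKP to -0.037 for GAPDH, and LDHA and HK2 were still called lower, where 78.6% of all genes were negative at the same threshold. The share of ribosomal protein counts was 20.8% to 23.1% after 24 h of THZ1 and 6.52% to 8.71% after 24 h of YKL-5-124, against 9.04% to 11.6% in DMSO. The part of this share in these values was not tested beyond that scaling.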

How the results depend on the processing

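The scaling moved most. With ribosomal protein mRNAs as the scale, these log2 fold changes turned sign. THZ1 4 h against DMSO gave PFKP -0.13, ALDOA -0.24, ENO1 -0.020, LDHA -0.072, BSG -0.0046, SLC16A1 -0.23, PC -0.014, G6PC3 -0.023 and HIF1A -0.13. THZ1 24 h against DMSO gave GPI -0.23, PFKP -0.83, ALDOA -0.022, ENO1 -0.20, PDHA1 -0.66, PDK1 -0.97, PC -0.99 and EPAS1 -0.72. YKL-5-124 4 h against DMSO gave PFKP -0.068, and YKL-5-124 24 h against DMSO gave HK2 0.042, GPI 0.41, PFKP 0.57, GAPDH 0.39, ENO1 0.17, LDHA 0.57, SLC16A7 0.087, DLAT 0.069, PDK1 0.13, RPIA 0.21 and MLX 0.010. THZ1 against YKL-5-124 gave HK2 -0.013, PFKP -0.059, ALDOC -0.16, TPI1 -0.061, ENO1 -0.032 and LDHA -0.085 at 4 h, and GPI -0.65, PFKP -1.40, ALDOA -0.87, ALDOC -1.16, TPI1 -0.68, PGK1 -0.52 and ENO1 -0.37 at 24 h. THZ1 24 h against 4 h gave GPI -0.33, PFKP -0.71 and ENO1 -0.18, and YKL-5-124 24 h against 4 h gave GPI 0.36, PFKP 0.63, ALDOA 0.38, GAPDH 0.35, ENO1 0.16 and LDHA 0.56. The compound by time difference gave GPI -0.69, PFKP -1.34, ALDOA -0.17, ALDOC -1.001, TPI1 -0.62, GAPDH -0.037, PGK1 -0.58 and ENO1 -0.34. Values near 0 also turned under other choices. In YKL-5-124 24 h against DMSO PFKP was 0.076 with upper quartiles, 0.13 with library totals and 0.028 with only the groups compared, and LDHA was 0.069, 0.13 and 0.021 under these choices. In YKL-5-124 24 h against 4 h PFKP was 0.024, 0.13 and 0.00034 under them, LDHA was 0.049 with library totals, and the compound by time difference of PFKP was -0.019 with library totals. Leaving out 1 library gave ranges across 0 in YKL-5-124 4 h against DMSO for PFKP (-0.048 to 0.079), TPI1 (-0.022 to 0.21), GAPDH (-0.016 to 0.20), PGK1 (-0.041 to 0.19) and ENO1 (-0.046 to 0.16), in YKL-5-124 24 h against DMSO for PFKP (-0.050 to 0.00079) and LDHA (-0.11 to 0.028), and in YKL-5-124 24 h against 4 h for HK2 (-0.035 to 0.14) and PFKP (-0.097 to 0.030). The cause of these changes was not tested.

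Counts of the 10 genes called moved by over 1.5 times as follows. With ribosomal protein scaling there were 0 higher and 1 lower in THZ1 4 h against DMSO, 3 higher and 4 lower in THZ1 24 h against DMSO, 0 lower in YKL-5-124 4 h against DMSO, 6 higher and 0 lower in YKL-5-124 24 h against DMSO, 0 higher in THZ1 against YKL-5-124 at 4 h, 0 higher and 9 lower at 24 h, 1 higher in THZ1 24 h against 4 h, 7 higher and 0 lower in YKL-5-124 24 h against 4 h, and 0 higher and 7 lower for the compound by time difference. Of all 14461 genes this scaling called 29 higher and 5512 lower in THZ1 4 h against DMSO. In THZ1 24 h against DMSO it called 574 and 11721, and in YKL-5-124 4 h against DMSO 3 and 62. In YKL-5-124 24 h against DMSO it called 5125 and 199. For THZ1 against YKL-5-124 it called 26 and 4460 at 4 h, and 277 and 12946 at 24 h. It called 756 and 10379 in THZ1 24 h against 4 h, and 6776 and 131 in YKL-5-124 24 h against 4 h. The compound by time difference had 197 and 11365. With library totals there were 3 higher and 1 lower in THZ1 4 h against DMSO, 2 higher and 1 lower in YKL-5-124 24 h against DMSO, 0 higher at 4 h and 5 higher at 24 h in THZ1 against YKL-5-124, and 1 higher in YKL-5-124 24 h against 4 h. Of all 14461 genes library totals called 583 higher and 4631 lower in THZ1 4 h against DMSO. In YKL-5-124 24 h they called 2093 and 1186 against DMSO, and 2286 and 1044 against 4 h. For THZ1 against YKL-5-124 they called 199 and 4168 at 4 h, and 1998 and 9927 at 24 h. In YKL-5-124 4 h against DMSO 0 were lower with relative log expression factors, upper quartiles or only the groups compared. Under these choices 64 of 14461, 59 of 14461 and 14 of 13404 genes were lower. In YKL-5-124 24 h against DMSO 1 was lower with upper quartiles or only the groups compared, and 3 were higher and 4 lower with the length covariate. Of all genes 1382 of 14461 were lower there with upper quartiles and 1444 of 13628 with only the groups compared. The length covariate called 2534 of 14461 genes higher and 3474 lower there. In YKL-5-124 24 h against 4 h 1 was higher with upper quartiles, no filter, the length covariate or DESeq2, and 3 were lower with the length covariate. Of all genes 1583 of 14461 were higher there with upper quartiles, 1274 of 30731 with no filter and 1662 of 14461 with DESeq2. The length covariate called 2595 of 14461 genes higher and 3376 lower there.

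Leaving out 1 library gave 7 to 8 higher and 0 to 0 lower in THZ1 4 h against DMSO, 8 and 2 in THZ1 24 h against DMSO, 0 and 0 in YKL-5-124 4 h against DMSO, 1 and 1 to 2 in YKL-5-124 24 h against DMSO, 3 to 6 and 0 in THZ1 against YKL-5-124 at 4 h, 8 and 2 at 24 h, 8 and 2 in THZ1 24 h against 4 h, 0 to 1 and 0 to 1 in YKL-5-124 24 h against 4 h, and 8 and 2 for the compound by time difference. The shares of all genes called with every library in the fit are given with each comparison above. Without 1 library, between 1843 of 14946 and 2243 of 14939 genes were higher in THZ1 4 h against DMSO. Between 8 of 14882 and 64 of 14920 genes were lower in YKL-5-124 4 h against DMSO, and between 1166 of 14921 and 2011 of 14876 in YKL-5-124 24 h against DMSO. In THZ1 against YKL-5-124 at 4 h between 993 of 14942 and 1532 of 14939 genes were higher.

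With the replicate number as a block in the fit of all libraries, 1 gene was called higher and 2 lower in YKL-5-124 24 h against 4 h. There 1684 of all 14461 genes were called higher and 2148 lower. In that fit TPI1 passed in THZ1 against YKL-5-124 at 4 h (log2 fold change 0.37, adjusted p = 0.0302 by edgeR). Of 30 same-numbered pairs of libraries between groups 22 correlated above 0.1, and all 30 lay between -0.892 and 0.891. Pairs of different number reached 0.904, so the numbers are not established as pairs. Of 1520 alternative values of the 10 genes 1354 kept their direction and side of the threshold, 67 turned sign, 68 no longer passed and 31 newly passed. Of those that kept both, 559 came from leaving out 1 library, and the sum hides the choice of scaling. With ribosomal protein scaling 23 values kept both, 45 turned sign, 15 no longer passed and 7 newly passed. With library totals these counts were 64, 5, 18 and 3. Precision is least for ALDOA, at 12 to 40 counts per library.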
